A study of Mus musculus with 61 samples.

Results

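The transcript levels of 4 genes that together mark neuromesodermal progenitors were followed in mouse stembryos, which are aggregates of embryonic stem cells that elongate into a tail bud-like structure after a pulse of Wnt agonist. The 4 genes, T, Sox2, Nkx1-2 and Evx1, were taken by name from the gene table of the series, which lists 55052 genes, and each name matched 1 gene. The table held 61 RNA-seq libraries from 28 combinations of genotype and stage. The study used the stembryos to ask how the HoxD cluster is activated in order and how deletions and an insertion at its CTCF-binding sites (CBS) change that timing. None of the 4 genes belongs to HoxD, and their levels are described in the same libraries in which the Hox genes were measured. Whether the edits at HoxD act on them was not tested.

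Neuromesodermal progenitors are cells of the caudal epiblast and tail bud that give rise to both spinal cord and paraxial mesoderm while the body axis elongates. They are recognised by the presence in the same cell of T (Brachyury), a T-box factor of the primitive streak and posterior mesoderm, and Sox2, an SRY-box factor of pluripotent and neural cells. Nkx1-2 encodes a homeodomain factor of the caudal lateral epiblast, and Evx1 a homeodomain factor of the posterior streak and tail bud. Wnt and Fgf signals maintain these cells, T and Tbx6 accompany the mesodermal fate, and Sox2 is kept in the neural one. In libraries made from pooled whole stembryos, fewer cells of a type and less RNA per cell cannot be told apart, and whether T and Sox2 lie in the same cells cannot be seen.

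Wild-type (wt) stembryos came from EmbryoMax 129/SVEV cells. A time course held 2 libraries at each of 8 stages, every 12 h from 72 h to 144 h after aggregation and at 168 h. A further 4 wt libraries of 96 h, 4 of 120 h and 2 of 144 h lay outside it and served as controls for 8 mutant lines. Del(CBS1), Del(CBS2), Del(CBS4), Del(CBS1-2), in which CBS2 was removed on top of Del(CBS1), Del(d1-d4), and Ins(2xCBS-d4d8), which carries a cassette with additional CTCF sites close to CBS1, were homozygous clones edited in the wt line. Del(sub-TAD1) and Del(CBS1-5) cells came instead from blastocysts of mutant mice that were bred on a hybrid background, so line origin and deletion cannot be told apart in them, and the Del(sub-TAD1) mice also carried a fosmid transgene to replace Mtx2. All lines received the same pulse of Wnt agonist, and each library was made from pooled stembryos. Each mutant condition had 2 libraries, except Del(sub-TAD1) at 96 h with 3. From 108 h onwards only elongating stembryos had been collected. All levels are FPKM, read fragments of a gene divided by its transcript length and by the depth of the library, so they compare per length between genes.

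T (ENSMUSG00000062327) lies on chromosome 17 at 8434423 to 8442496 on the plus strand of mm10, and Sox2 (ENSMUSG00000074637) on chromosome 3 at 34650405 to 34652461 on the plus strand, inside the long noncoding gene Sox2ot of the same strand. Nkx1-2 (ENSMUSG00000048528) lies on chromosome 7 at 132594878 to 132599637 on the minus strand. Evx1 (ENSMUSG00000005503) lies on chromosome 6 at 52313498 to 52318378 on the plus strand, and its 5′ part overlaps the antisense gene Evx1os over 1335 bp. The kit kept strand but the counting is stated only as default, so the reads of Evx1 and Evx1os may not be fully separated. For Sox2 the RefSeq start lies before that of the table. The 250 bases before the RefSeq start of each gene (GRCm38.p6) are shown because T, Nkx1-2 and Evx1 had similar courses over the stages. Capitals mark 6-letter or 7-letter matches, on either strand, to CTTTGA (TCF/LEF), AGGTGT (T-box), TTTATG (CDX) and ATGCAAA (octamer).
T, chr17:8434173-8434422, plus strand: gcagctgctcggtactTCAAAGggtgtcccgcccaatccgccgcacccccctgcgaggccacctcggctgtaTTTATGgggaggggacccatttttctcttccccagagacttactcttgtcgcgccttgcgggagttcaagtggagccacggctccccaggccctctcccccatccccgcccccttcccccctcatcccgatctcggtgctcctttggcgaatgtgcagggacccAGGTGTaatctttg
Sox2, chr3:34649745-34649994, plus strand: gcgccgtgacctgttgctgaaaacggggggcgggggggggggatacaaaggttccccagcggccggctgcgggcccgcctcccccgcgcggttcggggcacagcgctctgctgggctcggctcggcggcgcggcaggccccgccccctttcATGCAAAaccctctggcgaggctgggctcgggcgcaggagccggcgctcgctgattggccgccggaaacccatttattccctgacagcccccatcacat
Nkx1-2, chr7:132599638-132599887, minus strand: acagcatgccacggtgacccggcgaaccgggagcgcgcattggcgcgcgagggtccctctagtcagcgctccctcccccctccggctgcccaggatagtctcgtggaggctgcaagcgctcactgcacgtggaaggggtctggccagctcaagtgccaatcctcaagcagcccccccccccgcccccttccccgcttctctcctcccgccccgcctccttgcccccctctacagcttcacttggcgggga
Evx1, chr6:52313248-52313497, plus strand: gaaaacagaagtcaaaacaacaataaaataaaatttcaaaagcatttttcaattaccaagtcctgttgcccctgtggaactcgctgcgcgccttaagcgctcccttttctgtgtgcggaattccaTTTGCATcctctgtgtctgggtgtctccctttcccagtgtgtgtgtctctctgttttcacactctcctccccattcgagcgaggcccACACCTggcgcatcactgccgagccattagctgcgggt

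In windows of 300 bases around the start, CTTTGA occurred in 16.0% of 32851 RefSeq mouse promoters, AGGTGT in 13.7%, TTTATG in 11.9% and ATGCAAA in 4.63%. The T promoter held 1 match each to the TCF/LEF, CDX and T-box letters, the last 14 bases before the start. That of Evx1 held a T-box match 38 bases before the start and an octamer match at 125 bases, that of Sox2 an octamer match at 99 bases, and that of Nkx1-2 none of the 4. The upstream parts had a GC content of 62.8% for T, 72.0% for Sox2, 69.6% for Nkx1-2 and 49.6% for Evx1, against a median of 52.4% over all promoters. These matches are letters in a window and say nothing of binding.

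Some libraries stood apart from the rest. Depth, inferred from the smallest steps of the FPKM values, was 15.1 to 39.1 M fragments (median 24.0), and every member value lay above the level of 3 fragments. The libraries fell into 2 sets by the summed level of mt-Co2 and mt-Co3, at 1591 to 2980 FPKM in 28 libraries and 0.640 to 6.26 FPKM in 33. The second set holds every time course library, wt replicate 4 of 96 h and of 120 h, and both mutants Ins(2xCBS-d4d8) and Del(CBS4). It also holds the 96 h libraries of Del(sub-TAD1) and all of 144 h, Del(CBS1-5) included. The labels do not explain the split, so values against controls of the same set are given beside the main mutant results. In the time course, replicate 2 of 96 h and replicate 1 of 120 h differed from their partners in endoderm markers, with Sox17, an endoderm factor, at 9.94 against 1.99 FPKM and at 10.8 against 1.35 FPKM. They also had less of all 4 members than their partners, with T at 70.4 against 107 FPKM and at 39.2 against 58.4 FPKM. The summed level of 4 notochord markers was 8.86 against 2.92 FPKM and 10.4 against 2.16 FPKM. These libraries are called the 2 divergent libraries here, and setting them aside was decided after seeing the data. Where this leaves a stage with 1 library, that library is assumed to vary like the other groups. The labels name the cells only as mES cells. Replicate libraries are not stated to come from separate cultures, so p-values measure the spread between these libraries. At 72 h Pou5f1, shared by pluripotent and epiblast cells, was at 1124 and 1129 FPKM, and Nanog at 65.8 and 82.5 FPKM. All 8 markers of the pluripotency list were at 1 FPKM or more, with Zfp42 at 3.43 and 3.26 FPKM and Esrrb at 1.88 and 3.19 FPKM.

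T was highest at the first stage measured and fell almost throughout. It was at 759 and 1126 FPKM at 72 h, 306 and 503 FPKM at 84 h, and 107 and 70.4 FPKM at 96 h. The decline went on from 52.4 and 83.8 FPKM at 108 h and 39.2 and 58.4 FPKM at 120 h to 25.1 and 23.2 FPKM at 132 h. After 37.2 and 35.9 FPKM at 144 h, the level was 10.4 and 9.20 FPKM at 168 h, so that the mean of 72 h was 96.2 times that of 168 h. The libraries of 96 h, 108 h and 120 h overlapped, and those of the other stages did not overlap with their neighbours in level. On the log2(FPKM + 0.1) scale, limma called 4 of the 7 steps between adjacent stages, with Benjamini-Hochberg adjustment over 17098 genes and a threshold of 0.05. T fell by 1.24 ± 0.27 (SE) from 72 h to 84 h (adjusted p = 0.00111), by 2.18 ± 0.27 from 84 h to 96 h (adjusted p = 1.59e-07), by 0.98 ± 0.27 from 120 h to 132 h (adjusted p = 0.0419) and by 1.89 ± 0.27 from 144 h to 168 h (adjusted p = 5.57e-06). Without the 2 divergent libraries the step from 120 h to 132 h was −1.27 ± 0.32 and missed the threshold (adjusted p = 0.0569).

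Sox2 took the opposite course after 96 h. It was at 6.12 and 8 FPKM at 72 h, 26.2 and 25.6 FPKM at 84 h, and 18.4 and 5.58 FPKM at 96 h. It was at 16.7 and 20.5 FPKM at 108 h, 9.13 and 39.7 FPKM at 120 h, and 74.9 and 49.3 FPKM at 132 h. The last stages were at 61.2 and 71.2 FPKM at 144 h and 123 and 123 FPKM at 168 h. The stages from 132 h onwards lay above all earlier libraries, while those from 72 h to 120 h overlapped with a neighbour in level, as did 132 h and 144 h. Sox2 rose by 1.87 ± 0.45 on the log2 scale from 72 h to 84 h (adjusted p = 0.0025), fell by 1.34 ± 0.45 from 84 h to 96 h (adjusted p = 0.0279) and rose by 1.67 ± 0.45 from 120 h to 132 h (adjusted p = 0.0347). The later pair of calls rested on the 2 divergent libraries. Without them the changes were −0.49 ± 0.38 (adjusted p = 0.50) and 0.61 ± 0.38 (adjusted p = 0.759).

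Nkx1-2 peaked at 84 h, with 308 and 300 FPKM after 95.3 and 191 FPKM at 72 h. It then stood at 87.9 and 23.8 FPKM at 96 h, 47.5 and 56.3 FPKM at 108 h, and 10.1 and 43.9 FPKM at 120 h. A plateau of 41.8 and 38.4 FPKM at 132 h and 38.8 and 38.6 FPKM at 144 h preceded 11.0 and 8.61 FPKM at 168 h. Both libraries of 84 h lay above all others, and the low values of 96 h and 120 h were those of the divergent libraries. Nkx1-2 rose by 1.17 ± 0.40 from 72 h to 84 h (adjusted p = 0.0378) and fell by 2.73 ± 0.40 from 84 h to 96 h (adjusted p = 2.47e-06) and by 1.98 ± 0.40 from 144 h to 168 h (adjusted p = 0.000675). A fall by 1.30 ± 0.40 from 108 h to 120 h (adjusted p = 0.0400) shrank to −0.24 ± 0.25 without the divergent libraries (adjusted p = 0.811), and the fall from 84 h to 96 h to 1.79 ± 0.25. With replicate series 2 alone the rise from 72 h to 84 h was 0.65 and was not called, and with series 1 alone it was 1.69.

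Evx1 was the lowest of the 4 genes from 108 h onwards. It was at 55.6 and 34.5 FPKM at 72 h, 35.9 and 33.0 FPKM at 84 h, and 24.4 and 4.89 FPKM at 96 h. It passed through 9.37 and 11.8 FPKM at 108 h and 3.44 and 6.73 FPKM at 120 h. The late stages were at 3.76 and 4.53 FPKM at 132 h, 4.73 and 4.64 FPKM at 144 h and 1.15 and 0.800 FPKM at 168 h. The libraries of 72 h and 84 h overlapped, those of 96 h overlapped with those of 108 h and 120 h, and those of 120 h with those of 132 h and 144 h. Evx1 fell by 1.64 ± 0.40 from 84 h to 96 h (adjusted p = 0.00248) and by 2.18 ± 0.40 from 144 h to 168 h (adjusted p = 0.000245). Without the divergent libraries the first fall was −0.50 ± 0.34 (adjusted p = 0.403), and the step from 96 h to 108 h, which then rests on 1 library of 96 h with its spread taken from the other groups, was −1.21 ± 0.34 (adjusted p = 0.0268).

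**Figure D1:**
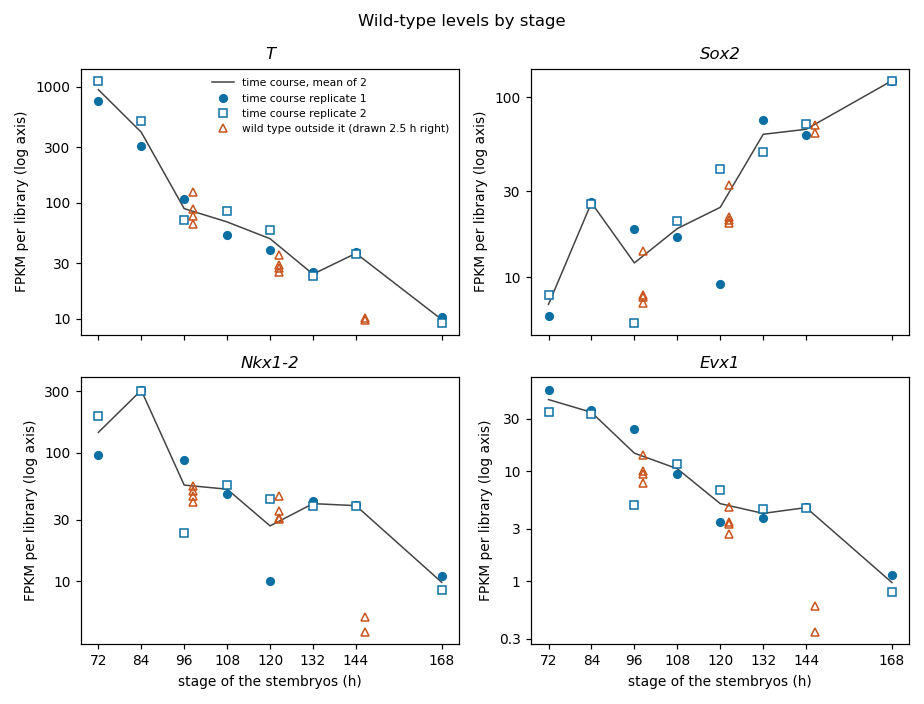
Each panel plots the FPKM of 1 gene (log axis) against stage in hours for every wt library; circles and squares are the 2 replicate series of the time course, the line is their mean, and triangles are wt libraries outside the time course, drawn 2.5 h to the right. T and Evx1 start high at 72 h, Nkx1-2 peaks at 84 h at 308 and 300 FPKM, Sox2 ends at 123 FPKM in both libraries, and the triangles at 144 h lie below the time course in every panel except that of Sox2.

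Over the 7 steps, 13 of the 28 member results were called, against 10.2% of all gene results, and 9 of 28 were called without the 2 divergent libraries, against 8.90%. The step from 84 h to 96 h called all 4 members, where 20.7% of genes were called, and 2 of them without the divergent libraries. The step from 72 h to 84 h called 3 (16.3% of genes), that from 144 h to 168 h called 3 (9.87%), that from 120 h to 132 h called 2 (2.46%) and that from 108 h to 120 h called 1 (7.06%). No member was called from 96 h to 108 h (9.45% of genes) or from 132 h to 144 h (5.42%) in the fit of all libraries. At an unadjusted p under 0.05, 16 of the 28 results passed, where 2315 to 5141 of the 17098 genes tested passed in each step.

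The other genes of caudal development changed as follows. From 72 h to 84 h, while T fell and Nkx1-2 rose, 12 of the 19 tested genes of caudal epiblast and axial elongation rose and none fell (median log2 change 1.36), among them Fgf4, a signal of the streak (4.47), and Cdx4, a caudal homeobox gene (3.09). In the same step 8 of 12 presomitic mesoderm genes rose (median 2.93), with the T-box gene Tbx6 at 3.78 and the oscillator gene Hes7 at 4.71, and 8 of 10 primitive streak genes fell (median −2.70), with Eomes at −4.16 and Gsc at −3.71. All genes together had a median of 0.00, and of the 17098 tested 1771 rose and 1020 fell. From 84 h to 96 h 8 of the 19 caudal genes fell and 1 rose, among them Wnt8a (−2.43) and Wnt3a (−1.81), whereas 6 of 14 neural progenitor genes rose and 1 fell, with Pax3, a dorsal neural and somitic factor, at 6.15. From 120 h to 132 h, when Sox2 was called only with the divergent libraries kept, 6 of 14 neural genes rose and none fell. The spinal cord factors Dbx1 and Pax6 were at 2.82 and 2.39. Among all 17098 genes tested 1395 rose and 2141 fell from 84 h to 96 h, and 230 rose and 190 fell from 120 h to 132 h. The list counts are from the fit of all libraries and were not recomputed without the divergent ones.

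At the end of the time course 12 of 19 caudal genes fell from 144 h to 168 h and none rose (median −1.43), with Cdx1 at −2.75 and Fgf17 at −2.64. Of the presomitic mesoderm genes 7 of 12 fell and 1 rose (median −1.64), and Msgn1 and Tbx6, which mark early paraxial mesoderm, changed by −4.55 and −3.94. Of the neural genes 8 of 14 rose and none fell (median 1.37), with Dbx1 at 3.29 and Hes5, a Notch target of neural progenitors, at 2.89. Among all 17098 genes tested 938 rose and 749 fell from 144 h to 168 h. T, Nkx1-2 and Evx1 fell in that step, and Sox2 had 0.90 ± 0.45 (adjusted p = 0.239), although both of its libraries at 168 h lay above both at 144 h.

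Outside the time course wt stembryos of 96 h and 120 h were compared with 4 libraries each. T was at 65.3 to 122 FPKM (median 82.1) at 96 h and 25.1 to 35.3 FPKM (median 28.2) at 120 h. Sox2 was at 7.18 to 13.9 FPKM (median 7.84) and 20.1 to 32.4 FPKM (median 21.2), and Evx1 at 7.79 to 14.0 FPKM (median 9.74) and 2.67 to 4.72 FPKM (median 3.39). In these 3 genes no library of one stage reached the range of the other. T fell by 1.56 ± 0.19 (adjusted p = 4.75e-08), Evx1 fell by 1.51 ± 0.28 (adjusted p = 6.93e-05) and Sox2 rose by 1.38 ± 0.32 (adjusted p = 0.000804), in a comparison that called 27.1% of all genes. Nkx1-2 was at 41.6, 45.7, 54.8 and 50.4 FPKM at 96 h and 30.4, 30.8, 35.4 and 46.0 FPKM at 120 h, which overlap. By replicate number Nkx1-2 was lower at 120 h in all 4 cases, but the labels do not say that same-numbered libraries are paired. Its change of −0.45 ± 0.28 was not called (adjusted p = 0.280), nor was it with the replicate block (adjusted p = 0.0568). Without the divergent libraries, where only the spread shared by the fit changed, it was called (adjusted p = 0.0191). In the same comparison all 12 presomitic mesoderm genes fell (median −2.36) and 10 of 14 neural genes rose (median 2.06).

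Wild-type stembryos of the same labelled stage did not always have the same levels. At 144 h the libraries outside the time course had T at 9.69 and 10.1 FPKM, Nkx1-2 at 4.07 and 5.33 FPKM and Evx1 at 0.348 and 0.599 FPKM, well below the 35.9 to 37.2, 38.6 to 38.8 and 4.64 to 4.73 FPKM of the time course. Sox2, at 69.5 and 63.0 FPKM, overlapped with the 61.2 and 71.2 FPKM of the time course. The time course was higher by 1.87 ± 0.27 for T (adjusted p = 5.19e-06), 3.03 ± 0.40 for Nkx1-2 (adjusted p = 1.03e-06) and 3.10 ± 0.40 for Evx1 (adjusted p = 8.62e-07), while Sox2 differed by −0.00 ± 0.45. This comparison, chosen after seeing the data, lies within 1 library set and called 21.5% of genes. In a match of each library to the time course by 1000 other stage-dependent genes, Hox genes and the 4 members left out, the wt libraries of 144 h outside it came closest to 157 h and 158 h, and those of the time course at 144 h to 151 h and 140 h. The match missed the labelled stage of time course libraries by up to 8 h. The summed level of 3 cardiac markers was 1.38 and 1.83 FPKM in them and 37.4 and 58.0 FPKM in the time course at 144 h, and that of 8 pluripotency markers 7.96 and 13 FPKM against 111 and 101 FPKM. Their part in the difference was not tested.

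At 96 h none of the 4 members was called between the time course and the other wt libraries (32.3% of genes), and T alone was called at 120 h, higher by 0.72 ± 0.24 in the time course (adjusted p = 0.0184, 30.1% of genes). Both comparisons cross the library sets, since the time course is of the second set and 3 of the 4 other libraries of each stage are of the first. The 1 other library of the second set, replicate 4, had T at 65.3 FPKM at 96 h, below the 107 and 70.4 FPKM of the time course, and at 29.2 FPKM at 120 h, below its 39.2 and 58.4 FPKM. Its Sox2, Nkx1-2 and Evx1 lay between the values of the time course at 96 h. The library of the time course at 96 h that is not divergent had Sox2 at 18.4, Nkx1-2 at 87.9 and Evx1 at 24.4 FPKM, above all 4 other wt libraries, and the divergent one had Sox2 at 5.58, Nkx1-2 at 23.8 and Evx1 at 4.89 FPKM, below all of them.

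The order of the 4 genes within a library changed with stage. T stood first in 35 of the 61 libraries, Sox2 in 17 and Nkx1-2 in 9, and Evx1 was last in 43 and Sox2 in 18. T lay above Sox2 in all 21 libraries of 96 h and in 15 of 22 at 120 h, and Sox2 lay above T in all 12 libraries of 132 h, 144 h and 168 h. In the time course the log2 difference of T and Sox2 was 6.93 and 7.12 at 72 h, 3.54 and 4.29 at 84 h, and 2.53 and 3.63 at 96 h. It was 1.64 and 2.03 at 108 h, 0.56 and 2.09 at 120 h and −1.58 and −1.08 at 132 h, so both series crossed 0 between 120 h and 132 h. At 144 h it was −0.99 and −0.72 in the time course and −2.83 and −2.63 outside it, and at 168 h −3.73 and −3.56. In wt libraries outside the time course it was 3.06 to 3.44 at 96 h and −0.15 to 0.71 at 120 h.

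**Figure D2:**
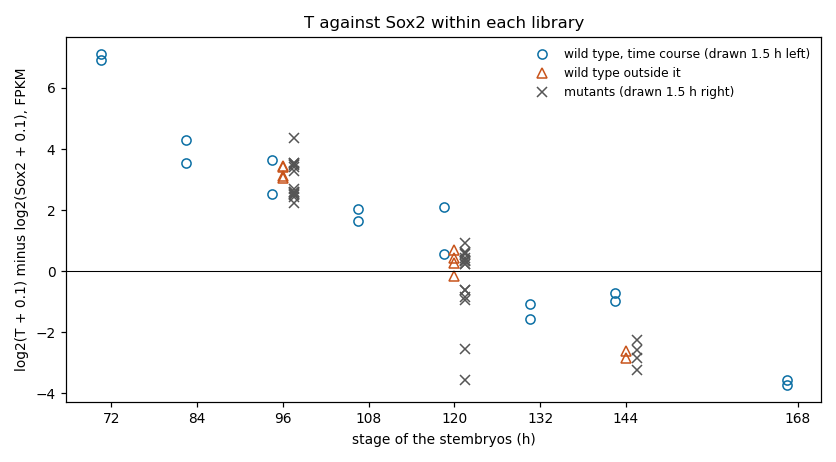
The log2 difference of T and Sox2 (each FPKM + 0.1) within a library is plotted against stage in hours; circles are the time course, triangles wt libraries outside it and crosses the mutants. The difference goes from about 7.02 at 72 h to −3.64 at 168 h in the mean of the time course, and at 120 h the lowest crosses, at −3.56 and −2.53, are Del(CBS4).

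T, Nkx1-2 and Evx1 ran together over the 28 condition means, with Pearson correlations of 0.85 (T and Nkx1-2), 0.94 (T and Evx1) and 0.93 (Nkx1-2 and Evx1) on the log2 scale, whereas Sox2 ran against T (−0.66). These points share stages and libraries, and no test was made. Within conditions the picture differed. The deviations of the 61 libraries from their condition means had a correlation of 0.61 for T and Sox2 and 0.81 for Sox2 and Nkx1-2. Without the time course at 96 h and 120 h these were 0.55 and 0.51 over 57 libraries, and that of Sox2 and Evx1 went from 0.48 to −0.01.

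In the mutants 11 of 68 member results were called against the wt libraries of the stage outside the time course, where 12.1% of all gene results were called. Without the 2 divergent libraries, which are no control here and enter only through the spread shared by the fit, 26 of 68 were called (13.7% of gene results), and these held all 11. The smaller spread is not independent of the members, since these libraries differ from their partners by 1.70 and 2.11 in Sox2, 1.88 and 2.11 in Nkx1-2 and 2.29 and 0.95 in Evx1 (log2, at 96 h and at 120 h). Calls of this kind below keep the same fold changes and rest on the smaller spread alone, so they add no support. Against controls of the same library set, 6 of 68 were called (6.24% of gene results). The mutants of a stage share these controls, so their results are not independent of each other. Mutant conditions have 2 libraries, and leaving out 1 of each (replicate 1 or replicate 2) left 3 and 0 of the 68 called. The share of all genes called in those fits is not given here.

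At 96 h Ins(2xCBS-d4d8) had the highest mean levels of Sox2, Nkx1-2 and Evx1 among the conditions of that stage. Nkx1-2 was at 140 and 119 FPKM and Sox2 at 29.0 and 23.0 FPKM, against 41.6 to 54.8 and 7.18 to 13.9 FPKM in the 4 controls. Evx1 was at 26.5 and 22.5 FPKM against 7.79 to 14.0 FPKM, and T at 138 and 125 FPKM against 65.3 to 122 FPKM. Both mutant libraries lay above all 4 controls in every gene. All 4 rose in a comparison that called 27.9% of genes: Sox2 by 1.53 ± 0.39 (adjusted p = 0.00397), Nkx1-2 by 1.43 ± 0.34 (adjusted p = 0.00306), Evx1 by 1.27 ± 0.35 (adjusted p = 0.00689) and T by 0.62 ± 0.24 (adjusted p = 0.0463). The T call was lost without wt replicate 1, 2 or 4. Against the 3 wt libraries of the same set, of which 2 are from the time course, the values were 1.47, 1.44, 1.31 and 0.74, and only Sox2 was called (adjusted p = 0.0169). One of those controls is a divergent library. With it left out, they were 1.11, 0.95, 0.82 and 0.65, again with Sox2 alone called (adjusted p = 0.0349). Of the caudal list 6 of 19 genes rose and 2 fell, with Epha5 at 1.86 and Cdx2 at 1.04, and of the presomitic list 5 of 12 fell and none rose, with Mesp2, a segmentation gene, at −1.60. The 2 mutant libraries matched 92 h and 100 h of the time course, and the 4 controls 92 h to 101 h. The match missed time course libraries by up to 8 h. Markers of somites summed to 49.0 and 120 FPKM in the mutant, against 78.7 to 276 FPKM in the controls. The part of stage and somite cells in these levels was not tested.

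Del(CBS1-2) and Del(CBS1), the line it was built on, also had high values at 96 h. In Del(CBS1-2) Nkx1-2 was at 100 and 98.6 FPKM, Evx1 at 22.9 and 21.8 FPKM and Sox2 at 21.3 and 19.9 FPKM, and in Del(CBS1) they were at 77.8 and 79.0, 18.0 and 19.3, and 16.5 and 17.4 FPKM. These 12 values all lay above the 4 controls, while T, at 120 and 116 FPKM and at 107 and 106 FPKM, lay within their range. In Del(CBS1-2) the log2 differences were 1.05 ± 0.34 for Nkx1-2 (adjusted p = 0.0718), 1.14 ± 0.35 for Evx1 (adjusted p = 0.0519) and 1.21 ± 0.39 for Sox2 (adjusted p = 0.0658), none of them called, where 4.49% of genes were called. Without the 2 divergent libraries, with the same differences and only a smaller spread, these 3 passed the threshold (adjusted p = 0.000347, 0.00289 and 0.00494). In Del(CBS1), where 1.23% of genes were called, the differences were 0.71, 0.88 and 0.93, and Nkx1-2 and Evx1 were called without the divergent libraries (adjusted p = 0.0247 and 0.0396). Against wt replicates 1 to 3, which are of the same library set as both lines, the differences were 1.08, 1.02 and 1.14 in Del(CBS1-2) and 0.74, 0.76 and 0.86 in Del(CBS1), and none was called. Somite markers, a list of 4 genes, summed to 63.9 and 57.4 FPKM in Del(CBS1-2) and 75.6 and 87.7 FPKM in Del(CBS1), against 78.7 to 276 FPKM in the controls. Of the 4 genes, 2 reached 1 FPKM in each of these libraries. In Del(CBS1-5) at 96 h the somite sums were also low, at 67.0 to 77.9 FPKM. Nkx1-2 and Evx1 differed there by −0.22 and 0.10 and were not called. Both Del(CBS1-2) libraries matched 92 h of the time course and those of Del(CBS1) 100 h and 93 h, while the controls matched 101 h, 100 h, 92 h and 100 h. The control at 92 h, replicate 3, had the highest level of all 4 members among the controls. The Del(CBS1) libraries at 100 h and 93 h had Nkx1-2 at 77.8 and 79.0 FPKM, and those of Del(CBS1-5) matched 91 h and 90 h. The match missed time course libraries by up to 8 h. The part of stage and somite cells in these levels was not tested.

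In Del(CBS1-5) at 96 h Sox2 stood alone. It was at 21.4 and 21.5 FPKM, above the 7.18 to 13.9 FPKM of the controls, and rose by 1.27 ± 0.39 (adjusted p = 0.0225, 14.8% of genes called, or 0.0717 and 0.0590 without wt replicate 1 or 2). Against controls of the same set it rose by 1.2 ± 0.40 (adjusted p = 0.0457). T at 128 and 131 FPKM also lay above all 4 controls but was not called (0.60 ± 0.24, adjusted p = 0.0862), and Nkx1-2 and Evx1 differed by −0.22 and 0.10. The 8 pluripotency markers moved with this line. Their summed level was 740 and 741 FPKM against 51.6 to 340 FPKM in the controls, Pou5f1 was at 162 and 167 FPKM against 27.2 to 80.9 FPKM, and the naive genes Zfp42 and Esrrb were at 13.4 and 14.7 FPKM and at 12.5 and 13.4 FPKM. The control with the highest sum, replicate 3, also had the highest Sox2, 13.9 FPKM. At 120 h the values went otherwise. The summed level in Del(CBS1-5) was 607 and 692 FPKM against 36.8 to 330 FPKM in the controls. Its Sox2, at 19.8 and 19.4 FPKM, lay below all controls of 120 h. The control with the highest Sox2 at 120 h, replicate 4 with 32.4 FPKM, had a sum of 63.1 FPKM. The part of the marker levels in the Sox2 level was not tested. Of the streak list 6 of 10 genes rose and none fell, with the Nodal co-receptor Tdgf1 at 4.07 and Nodal at 3.42.

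Del(sub-TAD1) at 96 h differed in T. T was at 105, 166 and 166 FPKM, with the last pair above all controls, and rose by 0.74 ± 0.21 (adjusted p = 0.00504, 40.0% of genes called). Without mutant replicate 2 it was 0.63 and not called (adjusted p = 0.141). Against controls of the same set the difference was 0.85 ± 0.34 and was not called (adjusted p = 0.0932). Markers of the notochord, which also transcribes T, were above the controls as well. Their summed level over 4 genes was 21.4 to 35.4 FPKM against 2.3 to 4.3 FPKM in the controls, and Noto, a defining notochord gene, was at 19.2, 15.5 and 11.6 FPKM against 0.311 to 1.24 FPKM. Definitive endoderm markers summed to 262 to 478 FPKM against 50.4 to 145 FPKM, and 8 of 10 streak genes rose and none fell, with Mixl1, picked after its values were seen, at 10.4 to 13.7 FPKM against 1.81 to 5.87 FPKM. Noto was highest in the library with the least T. In this line at 120 h the notochord markers summed to 18.5 and 11.6 FPKM against 1.70 to 2.98 FPKM in the controls. T was not called there (0.14 ± 0.24, adjusted p = 0.775). The part of all these markers in the T level was not tested. Sox2 in this line was at 4.98, 14.1 and 14.4 FPKM, a wider spread than in the controls, and Esrrb was at 1.42, 11.2 and 12.5 FPKM in the same libraries.

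In Del(CBS2) and Del(d1-d4) the 4 genes lay within or below the range of the controls at 96 h, and no difference was called. Nkx1-2 was at 30.9 and 27.5 FPKM in Del(CBS2) and 33.4 and 30.3 FPKM in Del(d1-d4), both below the 41.6 to 54.8 FPKM of the controls, by −0.71 ± 0.34 (adjusted p = 0.324, or 0.0312 without the divergent libraries) and −0.59 ± 0.34 (adjusted p = 0.406). Sox2 was also below all controls in both lines, at 6.54 and 5.60 FPKM and 5.62 and 6.89 FPKM.

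**Figure D3:**
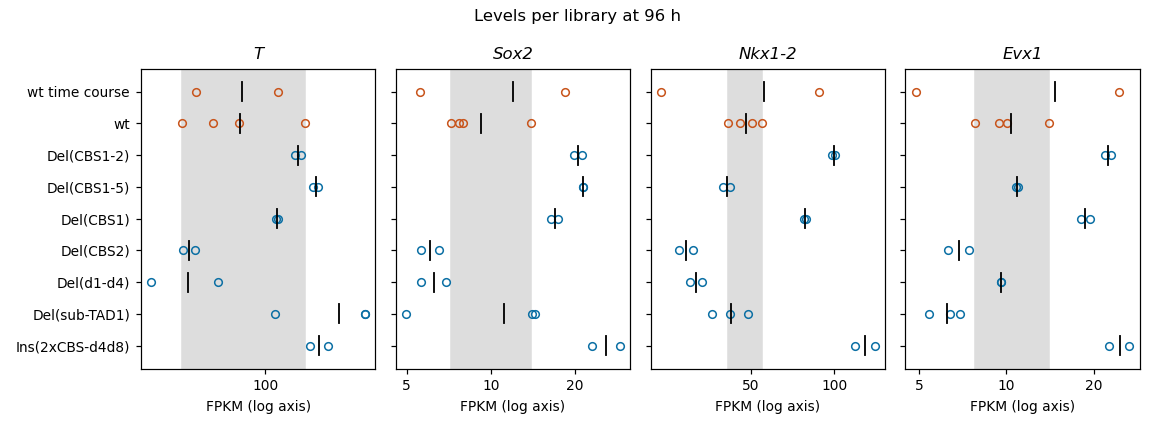
For each gene the FPKM of every library at 96 h (log axis) is plotted by condition; circles are libraries, bars their means, and the grey band the range of the 4 wt libraries outside the time course. Nkx1-2 and Evx1 lie to the right of the band in Del(CBS1-2), Del(CBS1) and Ins(2xCBS-d4d8), and the 2 time course libraries lie on either side of it for Sox2, Nkx1-2 and Evx1.

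At 120 h Del(CBS4) had the highest Sox2 and the lowest T of the conditions of that stage. Sox2 was at 80.2 and 108 FPKM against 20.1 to 32.4 FPKM in the controls, T at 13.8 and 9.02 FPKM against 25.1 to 35.3 FPKM, and Evx1 at 2.16 and 1.38 FPKM against 2.67 to 4.72 FPKM. Nkx1-2, at 39.3 and 31.3 FPKM, stayed within the 30.4 to 46.0 FPKM of the controls. Sox2 rose by 1.99 ± 0.39 (adjusted p = 0.000222), T fell by 1.37 ± 0.24 (adjusted p = 5.30e-05) and Evx1 fell by 0.97 ± 0.35 (adjusted p = 0.0274), in a comparison that called 37.5% of genes. Against controls of the same set Sox2 was at 2.03 ± 0.40 (adjusted p = 0.00065) and T at −1.85 ± 0.38 (adjusted p = 0.00101), while Evx1, at −1.25, was not called, nor was it against the usual controls without wt replicate 3 (−0.82, adjusted p = 0.0792). With the divergent control left out as well, Sox2 was at 1.37 ± 0.33 (adjusted p = 0.00544). The log2 difference of T and Sox2 was −2.53 and −3.56, below all wt libraries of 120 h. Of the neural list 8 of 14 genes rose and 1 fell, with Dbx1 at 5.20 and Pax6 at 3.11, and of the presomitic list 7 of 12 fell and none rose, with Msgn1 at −2.55 and Tbx6 at −2.21. The matched stage of the 2 libraries was 114 h and 128 h against 125 h to 126 h in the controls, in a match that missed time course libraries by up to 8 h, and their definitive endoderm markers summed to 4.55 and 3.80 FPKM against 16.6 to 174 FPKM in the controls. The part of these in the member levels was not tested.

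Del(d1-d4) at 120 h had lower T, with no call for Sox2. T was at 15.1 and 14.6 FPKM, below all controls, and fell by 0.96 ± 0.24 (adjusted p = 0.0236, 1.85% of genes called). Evx1 was at 1.62 and 1.23 FPKM and Nkx1-2 at 20 and 17.7 FPKM, also below all controls, with differences of −1.24 ± 0.35 (adjusted p = 0.0541) and −0.90 ± 0.34 (adjusted p = 0.197) that were called without the divergent libraries (adjusted p = 0.00263 and 0.00356). Sox2 was at 23.3 and 26.3 FPKM and differed by 0.09 ± 0.39. Of the caudal list 7 of 19 genes fell and none rose (median −0.91). Against the 3 controls of the same set T had the same difference, −0.96 ± 0.34, and was not called.

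In the other 6 lines no member was called at 120 h, against either the usual controls or those of the same set. Nkx1-2 lay below all controls in Del(CBS1-5), at 17.5 and 19.4 FPKM (−0.93 ± 0.34, adjusted p = 0.0685), and also in Del(CBS1), Del(CBS2) and Del(sub-TAD1), at 20.6 to 28.4 FPKM. Without the divergent libraries, through the smaller spread alone, Nkx1-2 was called in Del(CBS1-5) (adjusted p = 0.000533) and Del(sub-TAD1) (adjusted p = 0.0392). Sox2, at 32.3 and 45.0 FPKM, was then called in Ins(2xCBS-d4d8) (0.71 ± 0.27, adjusted p = 0.0449). In Del(CBS1-2), which had the raised levels at 96 h, the 4 genes were within or next to the control range at 120 h, with differences of −0.22 to 0.05.

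**Figure D4:**
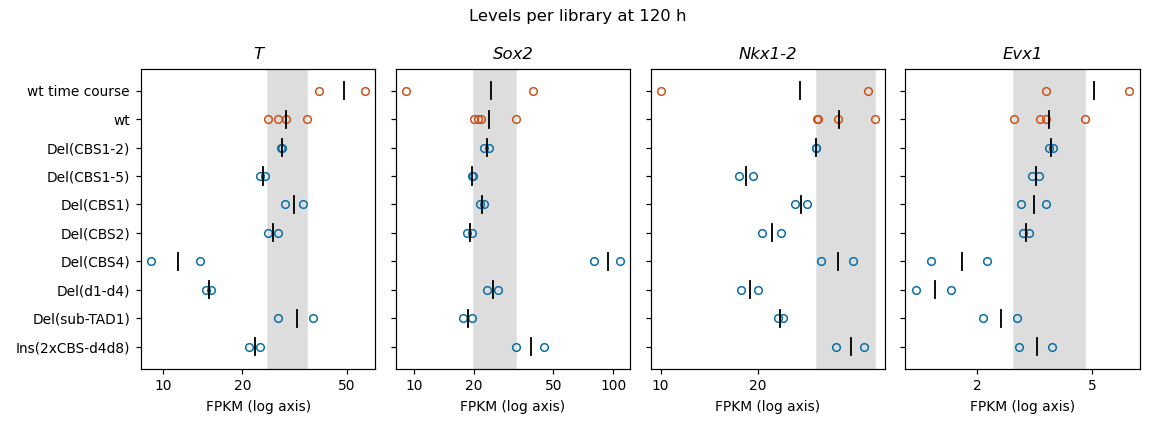
For each gene the FPKM of every library at 120 h (log axis) is plotted by condition; circles are libraries, bars their means, and the grey band the range of the 4 wt libraries outside the time course. Del(CBS4) lies to the right of the band for Sox2, at 80.2 and 108 FPKM, and to its left for T and Evx1, and Del(d1-d4) lies to its left for T, Nkx1-2 and Evx1.

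At 144 h the choice of control decided the result. In Del(CBS4) Nkx1-2 was at 16.2 and 15.0 FPKM, between the 4.07 and 5.33 FPKM of wt outside the time course and the 38.8 and 38.6 FPKM of the time course. It rose by 1.72 ± 0.40 against the former (adjusted p = 0.0132, 2.05% of genes called, and 0.216 and 0.0646 without wt replicate 1 or 2), and differed by 0.21 against all 4 libraries. Del(CBS1-5) at 144 h had T at 5.92 and 7.42 FPKM, Sox2 at 35.5 and 35.4 FPKM, Nkx1-2 at 5.68 and 6.84 FPKM and Evx1 at 0.116 and 0.323 FPKM. Sox2, T and Evx1 lay below every wt library of the stage. Against wt outside the time course no difference was called, with Sox2 at −0.90 ± 0.45 (adjusted p = 0.156). Against all 4 wt libraries, which are of 1 set, T fell by 1.51 ± 0.37 (adjusted p = 0.00158) and Evx1 fell by 2.44 ± 0.57 (adjusted p = 0.00108), where 30.7% of genes were called. These 4 libraries pool 2 wt groups that differ by 1.87 in T and 3.10 in Evx1. Against wt outside the time course alone the differences were −0.57 ± 0.27 and −0.89 ± 0.40. The Evx1 values of Del(CBS1-5) rest on about 5.95 and 18.0 inferred fragments and lie near the 0.1 FPKM added before taking logs. Its pluripotency markers summed to 873 and 790 FPKM against 7.96 to 111 FPKM in these 4 libraries. By matched stage, the Del(CBS4) libraries came closest to 136 h and 127 h and those of Del(CBS1-5) to 137 h and 138 h. The wt libraries outside the time course matched 157 h and 158 h, and those of the time course 151 h and 140 h. The match missed time course libraries by up to 8 h, and the part of stage in these levels was not tested.

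The difference between stages was tested for each line. Of 36 results 3 were called, against 4.43% of gene results, and all 3 were in Del(CBS4), whose difference from wt was higher at 144 h than at 120 h by 2.38 ± 0.53 for Evx1 (adjusted p = 0.00362), 1.43 ± 0.36 for T (adjusted p = 0.0101) and 1.72 ± 0.52 for Nkx1-2 (adjusted p = 0.0369), where 8.27% of genes were called. Against all wt libraries of each stage these were 0.99, 0.74 and −0.04, and none was called. For Del(CBS1-2) and Ins(2xCBS-d4d8), in which several members stood above the controls at 96 h, the differences of −1.27 to −0.50 and −1.39 to −0.82 were not called. Without the divergent libraries, through the smaller spread alone, that of Nkx1-2 was called in both lines (adjusted p = 0.00646 and 0.00431), and that of Evx1 in Ins(2xCBS-d4d8) (adjusted p = 0.0253). Leaving out wt replicate 1 or either Del(CBS4) replicate ended all 3 of the Del(CBS4) calls.

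**Figure D5:**
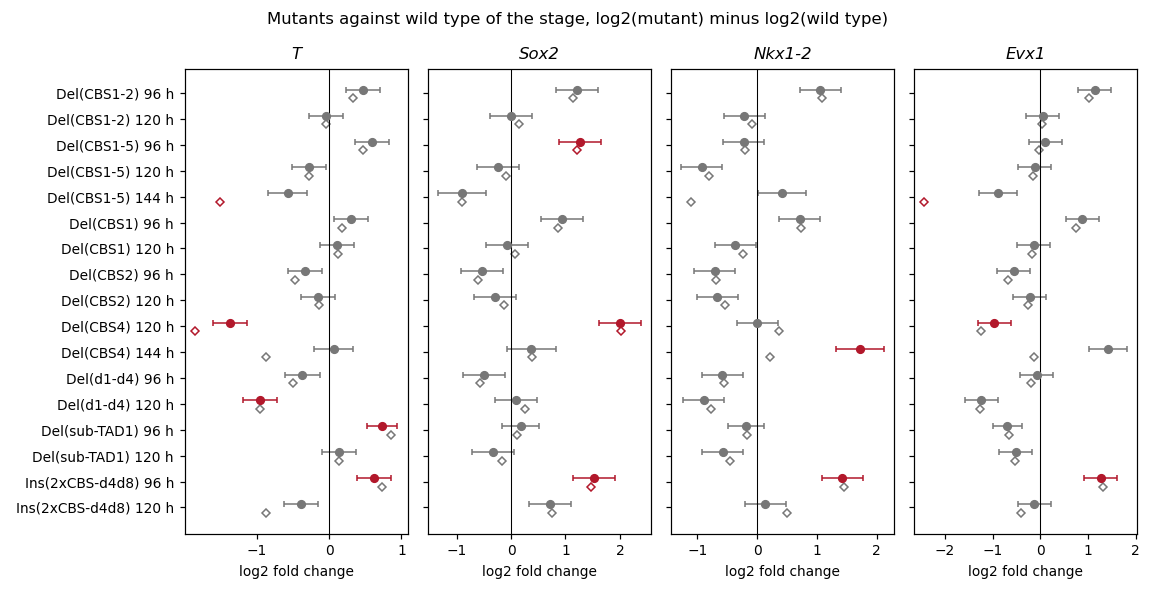
Filled circles give the log2 fold change of each gene in 17 mutant conditions against wt of the stage outside the time course, with bars of 1 SE, and open diamonds the fold change against wt of the same library set; red marks an adjusted p under 0.05. Sox2 in Del(CBS1-5) and Ins(2xCBS-d4d8) at 96 h and Sox2 and T in Del(CBS4) at 120 h are red under both controls.

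The genes most like each member over the 28 condition means were found among annotated genes with at least 5 FPKM in 1 condition. The 5 most like T were Mixl1, a streak homeobox gene (r = 0.97), Tcf7, a Wnt effector (0.95), Evx1 (0.94), Acnat1 and Rtl8c (both 0.93). Those most like Evx1 were its antisense partner Evx1os (0.99), Fgf8 (0.95), Wnt3a (0.95), the Wnt target Axin2 (0.94) and T (0.94), 3 of them from the caudal list. Those most like Nkx1-2 were Lhpp (0.95), Evx1 (0.93), Evx1os (0.92), Ptk7 (0.89) and Snph (0.88). Lhpp is its neighbour on chromosome 7, with 11000 bp between both genes, and was at 273 to 282 FPKM at 84 h and 45.0 to 45.4 FPKM at 168 h. Those most like Sox2 were Crabp2, a retinoic acid-binding protein (0.94), Chd3, Olfm2, Dazap2 (all 0.92) and the neural factor Rfx4 (0.92). Over the 8 stages alone the lists shared 0 of 5 genes for T and 1 of 5 for Sox2 (Chd3), Nkx1-2 (Lhpp) and Evx1 (Evx1os).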

How the data were processed

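Poly-A RNA of pooled stembryos was sequenced as stranded paired-end libraries. Per the submitters' processing notes and methods, the authors trimmed adapters with cutadapt 1.16, aligned reads to mm10 with STAR 2.7.7a, kept uniquely mapped reads and deposited FPKM values per gene computed with Cufflinks 2.2.1 at default parameters. No counts were used here. The values are normalised per library, so a gene at very high level in one library lowers the others.

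Of 55052 genes, the 17098 with a mean of at least 1 FPKM in at least 1 condition were tested on log2(FPKM + 0.1) with limma 3.58.1 in R 4.3.3, in 1 fit of all 28 conditions with Benjamini-Hochberg adjustment and a threshold of 0.05. Differences are on that scale and understate changes of low genes. Fold changes are given ± SE. Groups came from the labels. The members, the gene lists, the markers and the tests were chosen with earlier results of these data known. Named list genes are those with the largest change in the list among the genes called, and the genes most like a member are the 5 with the highest Pearson correlation over condition means among genes with at least 5 FPKM in 1 condition. Motifs were chosen after the sequences were seen.

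Depth was inferred from the smallest steps of the FPKM values (a whole number of fragments within 0.02), and all 40 replicate pairs differed beyond counting noise. In wt at 96 h and 120 h outside the time course, libraries of the same replicate number deviated together (r = 0.56, 0.57, 0.58 and 0.89). Libraries of different number were not compared, and replicate 4 of both stages is of the other library set than replicates 1 to 3. These correlations therefore cannot show that the numbers pair the samples. The fit with the replicate block, which treats them as pairs, called the same number of members, 3 of 4. Alternatives were another pseudocount, no filter, upper quartile scaling, a variance trend, only the compared groups, a replicate block, other controls and leaving out replicates. Leaving out the 2 divergent libraries and comparing wt of the time course with wt outside it were added after seeing the data.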

Additional observations from a re-analysis of the deposited data

Results flagged for a closer look

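In wt stembryos of 96 h outside the time course, Sox2 of replicate 3 stood apart from the other 3 libraries, at 13.9 FPKM against 7.18 to 7.96 FPKM. In wt of 120 h, Sox2 of replicate 4 stood apart at 32.4 FPKM, and this library is of the other library set than its partners. The gap to the nearest library exceeded Dixon's critical value in 2 of the 10 sets of 4 values examined, a rule that chance meets in about 1 of 20.

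The difference of Del(CBS4) from wt changed between 120 h and 144 h by 1.43 for T, 1.72 for Nkx1-2 and 2.38 for Evx1 on the log2 scale, by the test of the difference itself. The wt libraries of 144 h outside the time course, the controls of this comparison, had lower levels of the same 3 genes than the time course at 144 h.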

How the results depend on the processing

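In the main fit 10.2% of all gene results were called for the steps, 12.1% for the mutants and 4.43% for the differences between stages. The shares under most other settings are not given here, so the counts below cannot be read as particular to the members. Of the 28 steps between stages 13 were called, and 2 when the fit held only the 2 stages compared. It was 0 with the replicate block, 9 without the 2 divergent libraries and 12 to 13 with 1 replicate series left out. Of the 68 mutant results 11 were called, and 1 with only the compared groups, 1 with the replicate block, 6 with controls of the same library set, 6 with all wt libraries of the stage, 26 without the divergent libraries and 0 to 14 with a replicate left out. Of the 36 differences between stages 3 were called, and 5 with upper quartile scaling, 0 with only the compared groups, 7 with the replicate block, 0 with controls of the same set, with or without the divergent libraries, 0 with all wt libraries, 9 without the divergent libraries and 0 to 4 with a replicate left out. The 96 h to 120 h step of wt gave 3 or 4 calls of 4 throughout, and 3 with each replicate left out. For wt of the time course against wt outside it, 4 of 12 were called, 0 with the replicate block and 8 without the divergent libraries. The difference between stages of Nkx1-2 in Del(CBS4) reversed, to −0.15 with controls of the same set and −0.0372 with all wt libraries. Outside wt at 96 h and 120 h, same-numbered libraries did not deviate together (r from −0.06 to 0.09), and the cause of these shifts in the counts was not tested. Upper quartile scaling moved the median of all genes by over 0.1 in 8 of 37 comparisons, by −0.21 to 0.15. The peak stage of each gene was the same in each replicate series of the time course alone, and was recomputed under no other setting.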
